A study of Homo sapiens with 12 samples.

Results

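The adherens junction genes described here are 10 of the 50868 gene identifiers in a deposited table of RNA-seq read counts from MKN28 and MKN45, cell lines of human gastric cancer. They were taken by symbol: the classical cadherins CDH1 and CDH3, the catenins CTNND1, CTNNB1, CTNNA1 and JUP, the giant cadherins FAT1 and FAT4, and the actin linkers VCL and AFDN. CTNND1 and FAT1 were chosen by their low counts in the ZNF165 knockdown, so their values in that comparison, and in comparisons with the same libraries, are given as descriptions with no test. The 4 groups held 3 libraries each. They were MKN28 cells with a lentivirus carrying an siRNA (genotype ZNF165 knockdown), MKN28 cells with a control lentivirus (genotype WT), MKN45 cells with a ZNF165 lentivirus (genotype ZNF165 Overexpression) and MKN45 cells with a control lentivirus (genotype WT). ZNF165 encodes a zinc finger protein, and the design asks what lower ZNF165 does in one line and higher ZNF165 in the other. Nothing in the labels tells whether the replicates came from separate cultures, and p-values here measure the spread between libraries, possibly a technical one. The description of knockdown replicate 2 names ZNF166 and that of replicate 3 names ZNF167, whereas the genotype field gives ZNF165 for both, and the genotype was followed. MKN28 is listed in cell line registers as sharing its origin with another gastric line, MKN74, and MKN45 is known to carry an altered CDH1 allele, which counts per gene cannot show.

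Adherens junctions hold neighbouring epithelial cells together. The extracellular parts of cadherins bind each other across the gap between cells, while their tails bind p120 catenin (CTNND1), which keeps the cadherin at the surface, and β-catenin (CTNNB1) or plakoglobin (JUP), which join it through α-catenin (CTNNA1) to actin. Vinculin (VCL) is recruited to α-catenin under tension, and afadin (AFDN) ties the nectin adhesion molecules to actin. E-cadherin (CDH1) is the main cadherin of the gastric epithelium, and its loss is a hallmark of diffuse gastric cancer, whereas β-catenin also serves as a coactivator in Wnt signalling.

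Promoter windows from RefSeq (GRCh38.p14), running from 250 bases before a gene start to 50 bases after it, were matched for 6 of the 10 genes, CTNNB1, CTNNA1, JUP, FAT1, VCL and AFDN, with 11 starts in all. The windows of AFDN, VCL and FAT1 are shown because these genes were the low ones of the 6 in the knockdown, and those of JUP and CTNNB1, the pair of alternative cadherin partners, for contrast. Capitals mark the E-box CACCTG or its reverse complement CAGGTG, the hexamer bound by the SNAI and ZEB repressors of CDH1; the 2 forms are the same site read on either strand. Each is written 5′ to 3′ on the strand of the gene.
AFDN chr6:167827385-167827684 (+): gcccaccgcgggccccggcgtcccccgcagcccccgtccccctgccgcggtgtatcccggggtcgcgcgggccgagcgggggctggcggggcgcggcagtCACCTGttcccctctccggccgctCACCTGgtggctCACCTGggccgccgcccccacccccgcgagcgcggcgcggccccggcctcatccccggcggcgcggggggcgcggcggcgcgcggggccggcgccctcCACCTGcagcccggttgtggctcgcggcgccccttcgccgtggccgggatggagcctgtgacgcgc
VCL chr10:73997866-73998165 (+): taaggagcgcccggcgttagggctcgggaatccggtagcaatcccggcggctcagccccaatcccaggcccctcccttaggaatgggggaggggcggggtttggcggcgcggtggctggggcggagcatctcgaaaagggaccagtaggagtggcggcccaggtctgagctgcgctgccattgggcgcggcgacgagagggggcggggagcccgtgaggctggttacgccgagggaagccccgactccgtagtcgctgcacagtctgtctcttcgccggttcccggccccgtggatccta
FAT1 chr4:186726647-186726946 (-): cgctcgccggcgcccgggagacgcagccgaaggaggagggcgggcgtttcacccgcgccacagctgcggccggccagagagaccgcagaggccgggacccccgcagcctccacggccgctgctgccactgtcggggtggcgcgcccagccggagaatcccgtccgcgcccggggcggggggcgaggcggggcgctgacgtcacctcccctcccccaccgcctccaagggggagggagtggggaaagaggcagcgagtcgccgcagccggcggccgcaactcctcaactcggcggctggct
JUP chr17:41785927-41786226 (-): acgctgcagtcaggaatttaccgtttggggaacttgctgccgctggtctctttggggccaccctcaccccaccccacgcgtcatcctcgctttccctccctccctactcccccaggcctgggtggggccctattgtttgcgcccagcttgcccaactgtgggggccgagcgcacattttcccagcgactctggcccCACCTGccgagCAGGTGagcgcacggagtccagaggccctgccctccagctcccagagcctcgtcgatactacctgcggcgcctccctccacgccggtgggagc
CTNNB1 chr3:41199255-41199554 (+): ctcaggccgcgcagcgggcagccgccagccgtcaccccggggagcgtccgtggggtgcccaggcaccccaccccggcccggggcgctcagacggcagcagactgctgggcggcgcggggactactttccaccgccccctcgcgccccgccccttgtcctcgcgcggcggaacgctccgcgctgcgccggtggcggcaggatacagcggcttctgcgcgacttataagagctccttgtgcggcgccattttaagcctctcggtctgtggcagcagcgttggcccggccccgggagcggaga
The AFDN window held 4 E-boxes and the second start of JUP held 2. None was present in the windows shown for VCL, FAT1 and CTNNB1, nor at the other starts of JUP, FAT1 and CTNNA1. E-boxes of this kind occurred in 7231 of 35116 promoter windows (20.6%). The AFDN window was 83.7% GC with 49 CpG dinucleotides, the highest of the 11 starts, while the median of all windows was 58.7% GC and 14 CpG. In GENCODE 29 on GRCh38, the genes whose promoters are shown lie as follows: AFDN on chromosome 6 from 167826922 to 167972023, VCL on chromosome 10 from 73995193 to 74121363, FAT1 on chromosome 4 from 186587783 to 186726722, JUP on chromosome 17 from 41754604 to 41786931 and CTNNB1 on chromosome 3 from 41194741 to 41260096. CTNND1 lies on chromosome 11 from 57753243 to 57819546, CTNNA1 on chromosome 5 from 138610967 to 138935034 and FAT4 on chromosome 4 from 125316399 to 125492932. A match of letters describes the window and shows no binding.

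Library totals ranged from 12075813 to 19548445 counts, so that 3 counts, the level that a count of 0 allows, equalled 0.153 to 0.248 CPM (counts scaled to a common library total) in one library. Such floors, like all intervals here, cover counting error only. The ZNF165 counts were 74, 40 and 22 in knockdown libraries, against 262, 186 and 287 in MKN28 controls. They were 2115, 1977 and 1909 in overexpression libraries, against 156, 140 and 277 in MKN45 controls. Both changes passed edgeR's quasi-likelihood test with Benjamini-Hochberg adjustment over all genes (knockdown log2 fold change −1.47, SE 0.53, adjusted p = 0.0459; overexpression 3.09, SE 0.31, adjusted p = 0.0109). The knockdown call on ZNF165 was lost without any 1 of 5 libraries, with an adjusted p of up to 0.173, and the overexpression call without replicate 1 or 2 of that group (0.0662 and 0.0708). Knockdown replicate 1 stood apart from replicates 2 and 3. The junction protein CLDN4 had 56 counts in it, against 40987 and 21578 in the others, and the adhesion molecule EPCAM had 12554, against 1940 and 1815. Replicates 2 and 3 had 17620 and 17504 genes detected, against 20560 in replicate 1 and 21102 to 22579 in MKN28 controls. The TMM factors, which scale library totals, were 1.032, 0.568 and 0.724 in knockdown replicates 1, 2 and 3, and 1.264 to 1.376 in MKN28 controls. All 6 epithelial markers had at least 10 counts in every library. The defining leukocyte marker PTPRC had at most 3 counts. Of the fibroblast genes COL1A2 had at most 10 but COL1A1 271 to 2090, and of the mesenchymal genes VIM had at most 38 but FN1 53 to 1449. LYZ, on the leukocyte list but also made by gastric epithelium, reached 4560 counts in MKN45.

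In the knockdown, E-cadherin and both actin linkers fell, while P-cadherin, α-catenin and plakoglobin did not pass the test. Of the 10 genes, 9 had enough counts for the fit; FAT4 did not. Of the 7 with a test, 3 fell (CDH1, VCL and AFDN), none rose and 4 did not pass. The groups did not overlap for those 3, as for 53.8% of all genes, 30.3% lower. Over all 14939 genes tested, 40.8% passed in either direction and 21.6% were lower, so a call in this comparison was common; 47.0% of the calls were higher, and 25.1% with libraries scaled by their totals alone. The median log2 fold change of the 7 tested genes was −0.48, against −0.20 over all genes. Bulk counts cannot tell fewer cells of a type from less RNA per cell.

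CDH1, which encodes E-cadherin, had 1460, 772 and 416 counts in knockdown libraries and 6960, 8322 and 5993 in MKN28 controls. Scaled by TMM factors within the comparison, these were 93.8, 76.3 and 47.6 CPM in knockdown libraries, against 287.9, 352.9 and 259.7 CPM in controls. Every knockdown library lay below every control. The mean was 72.6 ± 23.3 CPM in the knockdown and 300.2 ± 47.8 CPM in controls (SD, n = 3 each), a log2 fold change of −2.05 (SE 0.46, edgeR adjusted p = 0.0075). CDH1 stayed past the threshold when any 1 library was left out, at an adjusted p of at most 0.0480. After the trend of fold change on transcript length and GC content was taken out, its log2 fold change was −1.10 (adjusted p = 0.0178).

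CDH3, which encodes P-cadherin and lies beside CDH1 on chromosome 16 (GENCODE 29, GRCh38, 68636189 to 68722616, against 68737225 to 68835548 for CDH1), did not pass the test. It had 2201, 2542 and 2046 counts in knockdown libraries, against 4349, 5673 and 2601 in MKN28 controls. The scaled levels overlapped between groups, averaging 209 ± 59.1 CPM in the knockdown and 178 ± 64.0 CPM in controls. The log2 fold change was 0.23 (SE 0.47, edgeR adjusted p = 0.712). It took the opposite sign, −0.62, when libraries were scaled by their totals alone, a scaling that moved the median log2 fold change of all genes to −0.92. The ratio of the 2 cadherins within a library needs no scaling. Per kilobase of the longest transcript, the CDH3 to CDH1 ratio was 1.495, 3.27 and 4.88 in knockdown libraries, against 0.620, 0.676 and 0.430 in MKN28 controls. P-cadherin RNA was thus above E-cadherin RNA in each knockdown library and below it in each control. The ratio was 5.09 times higher in the knockdown, with an exact two-sided permutation p of 0.1, the smallest that 3 against 3 libraries allow, and an adjusted p of 0.433 over 13 ratio tests chosen after the values were seen.

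**Figure D1:**
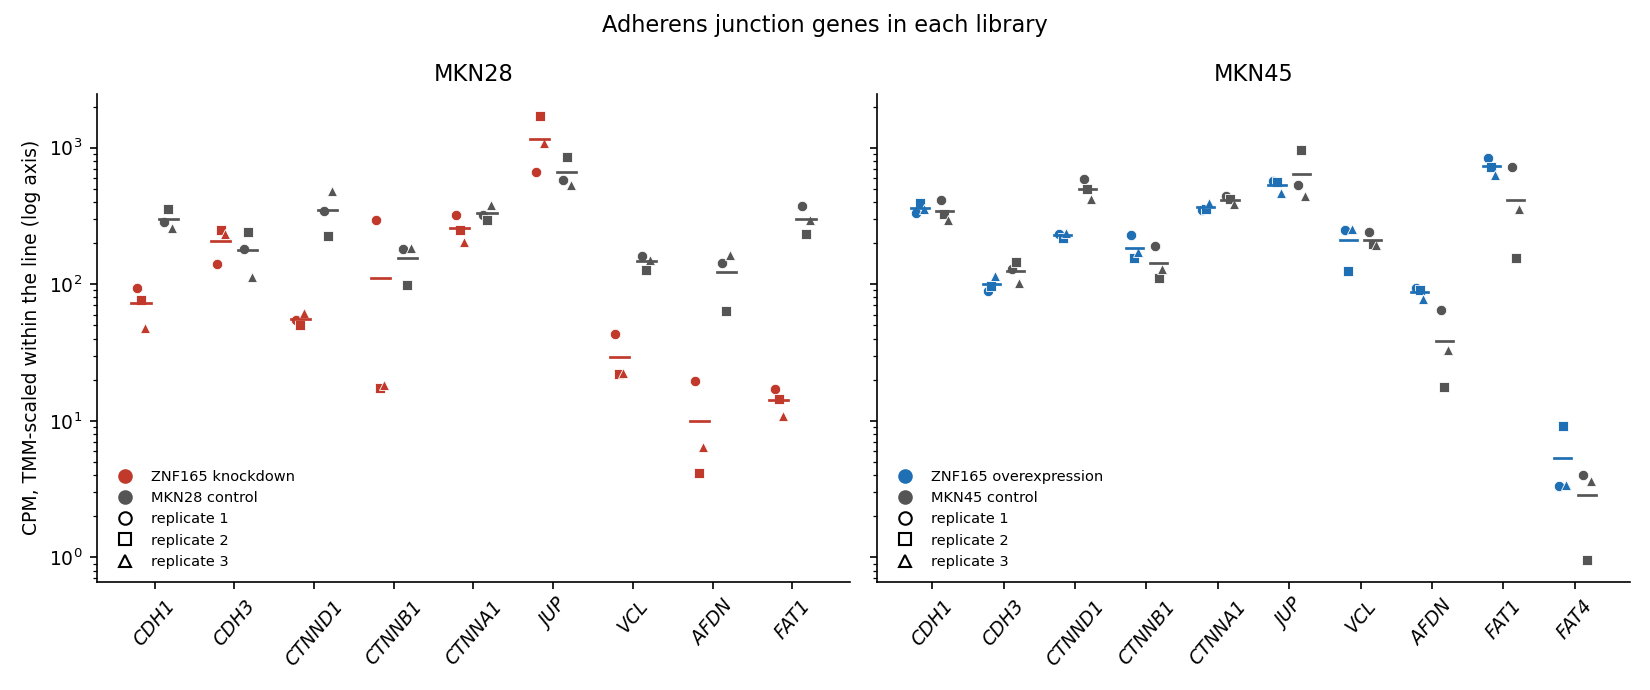
Levels of the adherens junction genes in every library, in CPM scaled by TMM factors within each line on a log axis, with knockdown and MKN28 control on one panel and overexpression and MKN45 control on the other; each point is 1 library and FAT4 is left out of the MKN28 panel. In knockdown libraries CDH1, CTNND1, FAT1, VCL and AFDN lie below all MKN28 controls, and CTNNB1 is split between 295.9 CPM in replicate 1 and 17.5 and 18.3 CPM in the other two.

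Among the catenins, p120 catenin was low in every knockdown library and chosen for it. CTNND1 had 857, 508 and 535 counts in the knockdown, against 8368, 5303 and 11177 in MKN28 controls, or 55.5 ± 5.5 CPM in the knockdown and 352 ± 130 CPM in controls. This difference, −2.66 on the log2 scale, is a description. With the length and GC trend removed it was −0.88.

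CTNNB1, which encodes β-catenin, split the knockdown group. Its counts were 4606, 177 and 160 in knockdown replicates 1, 2 and 3, against 4387, 2331 and 4229 in MKN28 controls. Replicate 1 was above all controls and the other two were far below them. The log2 fold change over all libraries was −0.48 (SE 0.94, edgeR adjusted p = 0.703). It was −2.98 without knockdown replicate 1 (adjusted p = 5.0e-05) and 0.98 when replicate 1 stood alone for the knockdown (adjusted p = 0.153, its spread assumed like that of the controls). No single value therefore describes β-catenin RNA in the knockdown. Library to library, the genes closest to CTNNB1 after the mean of each line was subtracted were HMGB1P5, MRPL35, YWHAQ, HMGB1P6 and PPP4R1, with Pearson correlations of 0.988 to 0.994 over 12 libraries across 17265 genes compared. HMGB1P5 and HMGB1P6 are pseudogenes whose reads may be shared with their parent gene. For CDH1 the closest were KIF13B, GPHN, TBL1X, GAREM1 and HIP1, at 0.976 to 0.986. Only the mean of each line was subtracted, so differences between treated and control libraries remain in these correlations. All of these points share the same libraries and scaling, and the correlations are descriptions.

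The differences in CTNNA1 and JUP did not exceed the spread between libraries by this test. α-Catenin had 5001, 2508 and 1769 counts in knockdown libraries, against 7764, 6976 and 8726 in controls, which scaled to 257 ± 59.9 CPM in the knockdown and 332 ± 42.2 CPM in controls. Its log2 fold change was −0.37 (SE 0.42, edgeR adjusted p = 0.507), turning to 0.40 after correction for length and GC. Plakoglobin, which can stand in for β-catenin in the cadherin complex, had 10254, 17358 and 9479 counts in knockdown libraries, against 14125, 20197 and 12327 in controls. Its scaled levels of 659, 1715 and 1085 CPM in the knockdown overlapped those of 584, 857 and 534 CPM in controls. The log2 fold change of JUP was 0.81 (SE 0.50, edgeR adjusted p = 0.215), 1.20 without knockdown replicate 1 (adjusted p = 0.0155) and −0.10 with library totals alone. Relative to E-cadherin within a library, α-catenin stood higher: the CTNNA1 to CDH1 ratio per kilobase was 4.37, 4.15 and 5.43 in the knockdown, against 1.42, 1.07 and 1.86 in controls, with no overlap (exact permutation p = 0.1, the smallest possible; adjusted p = 0.433). The JUP to CTNNB1 ratio was 3.11, 137.1 and 82.8 in knockdown replicates 1, 2 and 3, against 4.50, 12.1 and 4.07 in controls (exact permutation p = 0.4), repeating the split of CTNNB1.

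**Figure D2:**
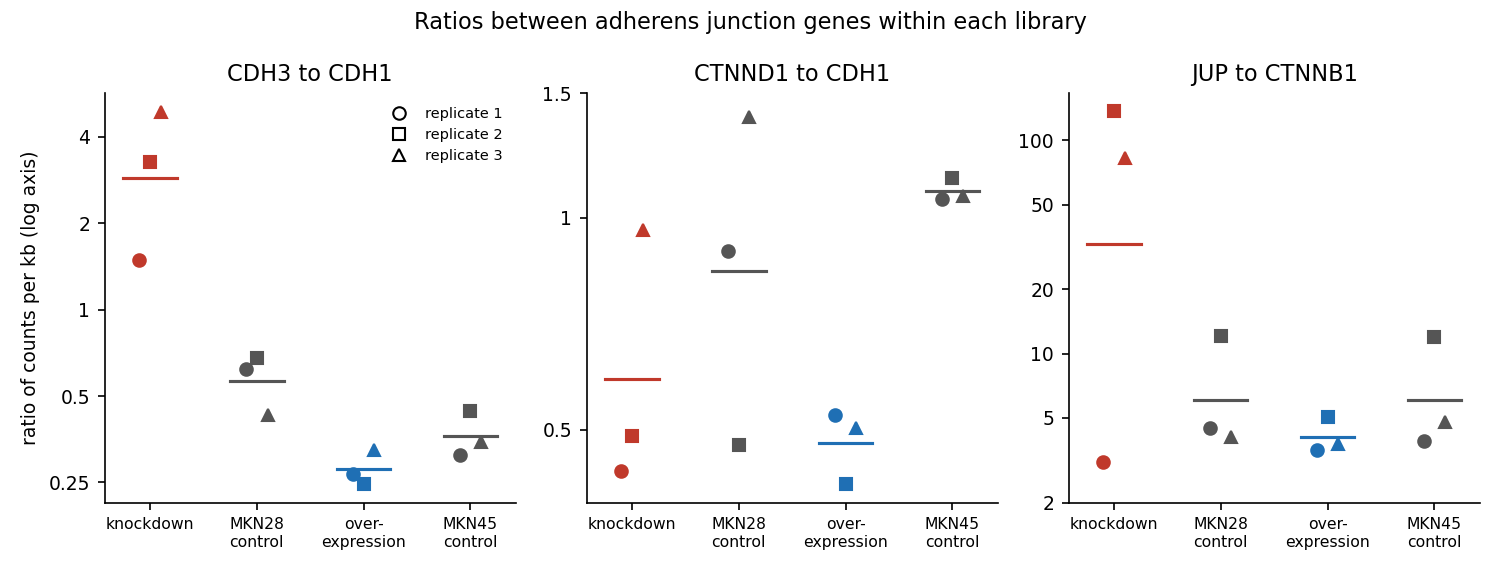
Ratios of counts per kilobase between pairs of adherens junction genes within each library, on a log axis, for knockdown, MKN28 control, overexpression and MKN45 control; circles, squares and triangles are replicates 1, 2 and 3 and bars are geometric means. The CDH3 to CDH1 ratio is above 1 in each knockdown library and below 1 in each other library, and the CTNND1 to CDH1 ratio is near 0.5 in overexpression libraries and above 1 in MKN45 controls.

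Both actin linkers fell. VCL had 670, 224 and 195 counts in knockdown libraries, against 3923, 2979 and 3501 in MKN28 controls, with no overlap. The scaled mean was 29.2 ± 12.02 CPM in the knockdown and 147 ± 18.5 CPM in controls (SD, n = 3 each; log2 fold change −2.33, SE 0.48, edgeR adjusted p = 0.0055). Removing the length and GC trend left −0.28 (adjusted p = 0.378), so the vinculin call did not outlast it. VCL shares 1109 of its 9992 exonic bases with AP3M1 on the opposite strand. With the strand setting unknown, reads from that stretch cannot be told apart. AFDN had 303, 42 and 56 counts in knockdown libraries, against 3467, 1496 and 3788 in controls. Afadin RNA averaged 10.01 ± 8.3 CPM in the knockdown and 124 ± 53.2 CPM in controls, a log2 fold change of −3.62 (SE 0.70, edgeR adjusted p = 0.0048). It was −1.91 with the trend removed (adjusted p = 0.0038).

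FAT1, a giant cadherin that acts on actin and on Hippo signalling, had 268, 146 and 95 counts in the knockdown, against 9107, 5521 and 6797 in MKN28 controls, or 14.2 ± 3.2 CPM in the knockdown and 302 ± 71.5 CPM in controls. It was chosen for this difference of −4.41 on the log2 scale, which was −2.12 with the length and GC trend removed. FAT4, its relative, was nearly absent from MKN28: knockdown libraries held 0 counts of 45006126, which allows up to 0.0667 CPM, and controls held 0, 1 and 1.

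**Figure D3:**
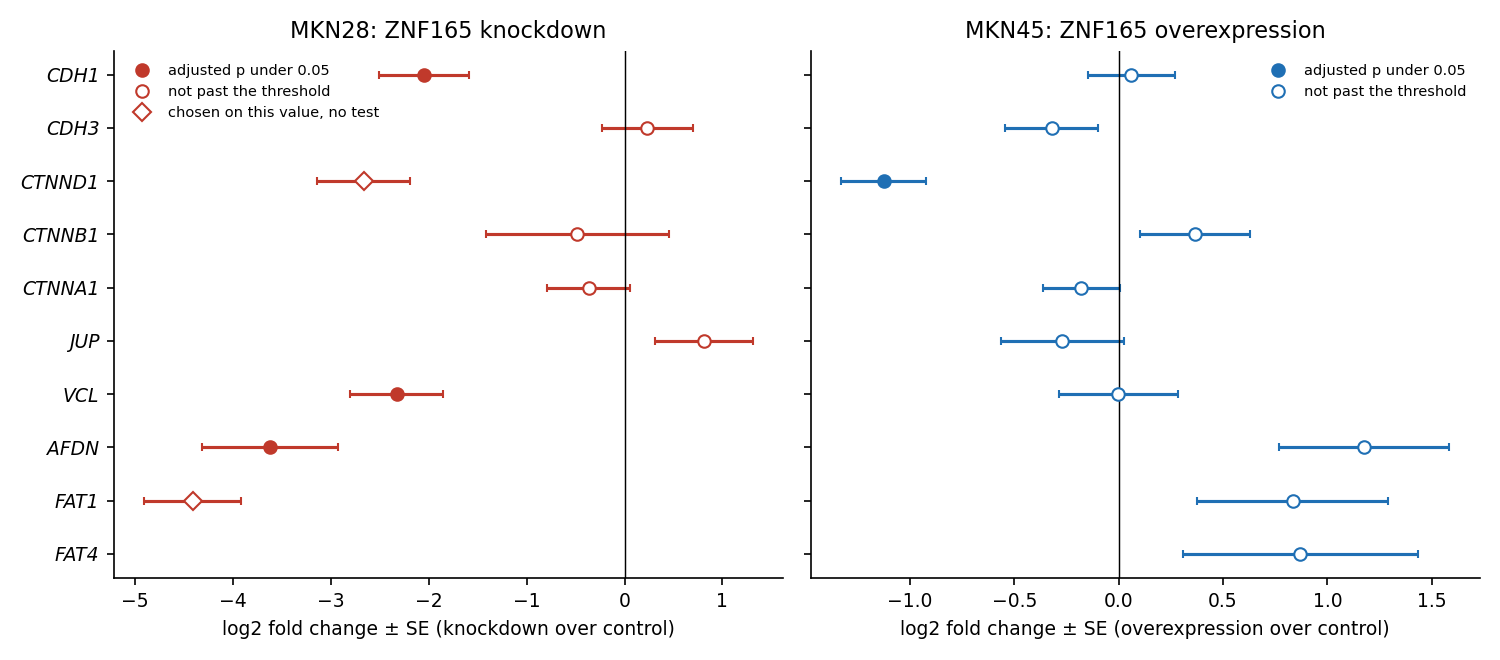
Log2 fold changes of the adherens junction genes with their standard errors, knockdown against control in MKN28 on one panel and overexpression against control in MKN45 on the other, whose horizontal axes differ; diamonds mark values given with no test and FAT4 has no value in MKN28. In the knockdown 3 of the 7 tested values lie at −2.05 or below, while in overexpression CTNND1 at −1.12 and AFDN at 1.18 stand farthest from 0.

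Fold changes in the knockdown moved with transcript length over the whole table. Genes were split into 4 equal groups by the longest transcript. In the longest, from 5030 bases, the median log2 fold change was −1.62 and 47.6% of genes were lower at the threshold; in the next, 3255.5 to 5030 bases, the median was −0.56 and 23.9% were lower; in the shortest, the median was 1.15 and 4.30% were lower. CTNND1, FAT1, VCL and AFDN belong to the longest group, at 6553, 14786, 7995 and 7593 bases. CDH1 (4889 bases), CDH3 (4929), CTNNB1 (4888), CTNNA1 (3831) and JUP (3497) belong to the next. CDH1 and CDH3 have nearly the same length, with GC contents of 48.6% and 54.1%. The summed epithelial markers also moved with the group, at 14460 to 39390 CPM in knockdown libraries, against 6805 to 7405 CPM in MKN28 controls, and 5 of the 6 rose, where 19.2% of all genes did. That count was 2 without MKN28 control 1 or 3 and 4 after correction for length and GC, and the groups did not overlap for 3 of the 6. On the fibroblast list, where 1 of 7 genes reached 10 counts in every library of each group, the sum was 27.8 to 45.2 CPM in the knockdown and 89.2 to 122 CPM in controls, nearly all COL1A1, with DCN at no more than 2 counts. The sum of the 4 mesenchymal genes, mostly FN1, was 20.2 to 34.4 CPM in the knockdown and 65.8 to 83.7 CPM in controls. All marker sums here were scaled by library totals alone. Scaled by TMM factors, COL1A1 averaged 48.1 CPM in the knockdown and 77.8 CPM in controls (edgeR adjusted p = 0.294). FN1 averaged 34.4 CPM in the knockdown and 53.4 CPM in controls (edgeR adjusted p = 0.277), so neither passed. Other genes of these lists ran the other way. VIM averaged 1.39 CPM in the knockdown and 0.394 CPM in controls, without passing (edgeR adjusted p = 0.138). COL3A1 had 41, 7 and 6 counts in the knockdown, against 0, 0 and 0 in controls. THY1 had 7, 7 and 4 in the knockdown, against 2, 2 and 0 in controls. Both had too few counts to be tested. SPARC passed as lower, at 0.0758 CPM in the knockdown and 0.633 CPM in controls (edgeR adjusted p = 0.0308). It had 2, 1 and 0 counts in the knockdown, against 17, 18 and 10 in controls. SPARC thus passed the low-count filter only through the controls, which limits what its call adds. Lower calls among the mesenchymal genes, 1 in the main fit, numbered 0 to 1 without 1 library. They numbered 0 after correction for length and GC. The 4 endothelial markers summed to at most 0.728 CPM in the knockdown and 2.16 CPM in controls. The 5 leukocyte markers summed to at most 3.53 CPM in the knockdown and 0.535 CPM in controls. Most of that knockdown sum was CD14, with 26, 63 and 34 counts in the knockdown and 3, 0 and 7 in controls. CD14 passed as higher (log2 fold change 4.72, edgeR adjusted p = 0.0057), and it passed the low-count filter only through the knockdown libraries. The part of these markers in the falls was not tested.

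**Figure D4:**
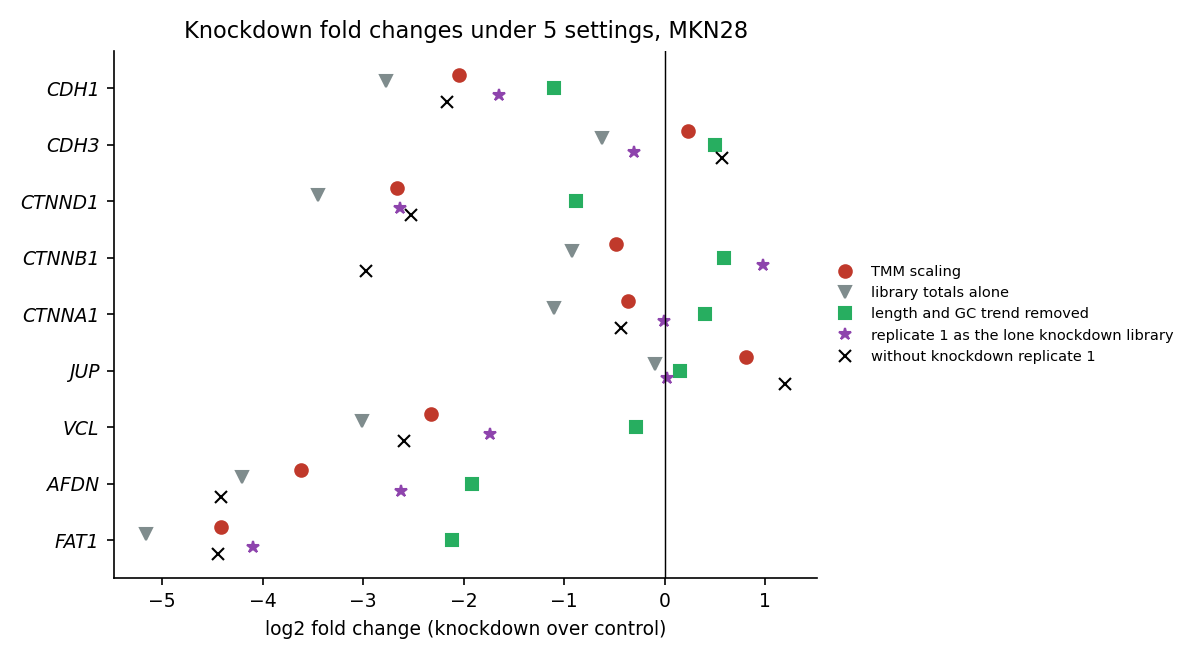
Log2 fold change in the knockdown against MKN28 controls for the adherens junction genes except FAT4, 1 point for each setting shown. The settings shown are TMM scaling (the main fit), library totals alone, and the length and GC trend removed. The others are replicate 1 as the lone knockdown library and the fit without knockdown replicate 1. CDH1, CTNND1, FAT1, VCL and AFDN are below 0 under every setting run, whereas CTNNB1 runs from −2.98 to 0.98 and CDH3, CTNNA1 and JUP lie on both sides of 0.

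Genes that work beside these members changed in both directions in the knockdown. The lists were drawn up by function, and from each the text names up to 2 of the highest and 2 of the lowest fold changes past the threshold. The counts are to be read against the 19.2% of all genes that were higher and the 21.6% that were lower, and they moved with single libraries: in each of these lists the lowest counts came without MKN28 control 1 and the highest without knockdown replicate 1, some also without other libraries. Among other cadherins and plaque partners, 1 of 5 tested genes rose and 1 fell (0 to 2 each without 1 library): CTNNBIP1, which blocks β-catenin from TCF, averaged 93.0 CPM in the knockdown and 29.1 CPM in controls, and PKP4, a relative of p120 catenin, 15.2 CPM in the knockdown and 72.7 CPM in controls. Of 19 nectins and actin linkers, 5 rose and 7 fell, against 1 to 8 in each direction without 1 library and 4 each after correction for length and GC. SORBS3, the vinculin partner vinexin, averaged 133 CPM in the knockdown and 12.04 CPM in controls (log2 fold change 3.47), and AJUBA, a LIM protein of junctions, 73.6 CPM in the knockdown and 18.7 CPM in controls. TJP1, the scaffold ZO-1 that also binds afadin and α-catenin, averaged 42.6 CPM in the knockdown and 350.5 CPM in controls (−3.04, and −0.99 with the trend removed), and SSX2IP, an afadin-binding protein, 2.04 CPM in the knockdown and 16.4 CPM in controls.

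Of 15 tested regulators of E-cadherin transcription, 3 rose and 5 fell, with 1 to 5 higher and 3 to 5 lower without 1 library and 3 each with the trend removed; 3 of 15 is near the share of all genes. OVOL1 and ELF3, factors of epithelial cells, rose to 347 and 199 CPM in the knockdown, against 55.7 and 41.6 CPM in controls. GRHL2, an activator of CDH1, fell to 11.1 CPM, against 90.6 CPM in controls (log2 fold change −3.03, SE 0.72, edgeR adjusted p = 0.0095). KLF8, a repressor, fell to 0.171 CPM, against 1.88 CPM in controls. With 8, 0 and 0 counts in the knockdown and 67, 29 and 38 in controls, KLF8 passed the low-count filter only through the controls. SNAI1, the repressor Snail, was singled out after its values were seen: it rose to 66.1 CPM, against 19.7 CPM in controls (1.75, edgeR adjusted p = 0.0382), a call lost without any 1 of 4 libraries (adjusted p up to 0.157) and after correction for length and GC (0.36, adjusted p = 0.367). ZEB1, ZEB2, SNAI2, TWIST1 and TWIST2 had too few counts in MKN28 to be tested.

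In the β-catenin destruction complex 2 of 10 rose and 4 fell, with 0 to 2 higher and 1 to 5 lower without 1 library, and 4 higher and 1 lower with the length and GC trend removed. The kinase GSK3A and the scaffold AXIN1 averaged 330.0 and 228 CPM in the knockdown, against 70.9 and 78.6 CPM in controls, whereas the ubiquitin ligase subunit BTRC and AMER1, an APC-binding protein, averaged 4.85 and 3.77 CPM in the knockdown, against 27.9 and 14.2 CPM in controls. Of 18 tested FAT, Dachsous and Hippo genes, 2 rose and 5 fell, with 1 to 3 higher and 2 to 9 lower without 1 library, and 5 higher and 3 lower with the trend removed. The transcription factor TEAD4 and the YAP target CCN1 rose (139 and 753 CPM in the knockdown, against 26.6 and 193 CPM in controls), and the kinase STK3 and TEAD1 fell (9.90 and 8.99 CPM in the knockdown, against 99.4 and 58.1 CPM). Of 7 tested desmosome genes, 1 rose and 4 fell, with 0 to 1 higher and 2 to 4 lower without 1 library, and 2 higher and 3 lower with the trend removed. The plaque protein PKP3 rose to 758 CPM, against 168 CPM in controls; the desmosomal cadherin DSG2 fell to 13.9 CPM, against 163.5 CPM, and desmoplakin, DSP, to 74.2 CPM, against 719 CPM.

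All 11 genes named here by the rule as lower in the knockdown had transcripts in the longest group, and 1 of the 10 higher ones did. Of all genes in that group, 47.6% were lower at the threshold and 4.28% higher, against 21.6% and 19.2% of all genes tested. The rule took the largest fold changes of each list, so the named genes do not stand for all genes called. A fit corrected for length and GC kept the calls of 6 of the 11 and 9 of the 10; those lost were SSX2IP, KLF8, BTRC, AMER1, TEAD1 and TEAD4. Leaving out 1 library at a time kept the calls of SORBS3, TJP1, OVOL1, GRHL2, BTRC, TEAD4, STK3, TEAD1, DSG2 and DSP, 10 of 21, in all 6 fits. The other 11 lost theirs in at least 1 fit, with adjusted p of up to 0.132.

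With ZNF165 overexpressed in MKN45, 1 adherens junction gene fell, p120 catenin, and E-cadherin, the remaining catenins, vinculin, afadin and both FAT cadherins did not pass the test. All 10 genes were tested. Over 15833 genes, 1.13% passed in either direction, with 0.935% higher and 0.196% lower. The median log2 fold change of the 10 genes was 0.03, against −0.00 over all genes. Fold changes moved with transcript length here too, in the direction opposite to the knockdown. The median was −0.34 in the shortest group and 0.38 in the longest. CTNND1, FAT1, FAT4, VCL and AFDN belong to the longest.

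CTNND1 had 4566, 4492 and 4238 counts in overexpression libraries, against 10542, 6708 and 6629 in MKN45 controls. These were 232, 219.9 and 239 CPM in overexpression libraries, against 589, 495 and 422 CPM in controls, with a narrow spread in the first group. The groups did not overlap, as for 38.1% of all genes, 18.7% lower. The mean was 230.2 ± 9.6 CPM in overexpression and 502 ± 83.9 CPM in controls (SD, n = 3 each), a log2 fold change of −1.12 (SE 0.20, edgeR adjusted p = 0.0443). This test did not use the values for which CTNND1 was chosen. The call was marginal: leaving out MKN45 control 3 (adjusted p = 0.0865) or any 1 of the overexpression libraries (0.158 to 0.200) ended it, with fold changes between −1.24 and −1.01 in every such fit. The CTNND1 to CDH1 ratio per kilobase was 0.525, 0.419 and 0.503 in overexpression libraries, against 1.06, 1.14 and 1.07 in MKN45 controls, 0.440-fold and without overlap (exact permutation p = 0.1, the smallest possible; adjusted p = 0.433). In MKN28 the same ratio was 0.438, 0.491 and 0.960 in knockdown libraries, against 0.897, 0.475 and 1.39 in controls, which overlap. CTNND1 shares bases with the read-through gene TMX2-CTNND1, which had 24 counts over all libraries.

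AFDN ran the other way without passing. It had 1834, 1841 and 1384 counts in overexpression libraries, against 1158, 239 and 521 in MKN45 controls, or 87.1 ± 8.0 CPM in overexpression and 38.5 ± 24.0 CPM in controls. The groups did not overlap, as for 38.1% of all genes. The log2 fold change was 1.18 (SE 0.41, edgeR adjusted p = 0.123). DESeq2 gave an adjusted p of 0.0426, and leaving out MKN45 control 1 gave 0.0432. In the remaining 12 of 14 alternative fits AFDN did not pass, with an edgeR adjusted p of up to 0.523. The controls of FAT1 were as uneven, with 12980, 2100 and 5568 counts, while overexpression libraries had 16622, 14778 and 11259 (log2 fold change 0.83, SE 0.46, edgeR adjusted p = 0.268). MKN45 control 2 was the low one for both genes and also for FAT4, which had 66, 187 and 60 counts in overexpression libraries, against 72, 13 and 57 in controls (0.87, SE 0.56, edgeR adjusted p = 0.340).

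E-cadherin RNA averaged 359 ± 31.3 CPM in overexpression libraries and 344 ± 62.6 CPM in MKN45 controls, a log2 fold change of 0.06 (SE 0.21, edgeR adjusted p = 0.871). P-cadherin averaged 101 ± 13.8 CPM in overexpression and 126 ± 21.4 CPM in controls (−0.32, edgeR adjusted p = 0.372). For β-catenin the means were 185 ± 38.2 CPM in overexpression and 144 ± 40.8 CPM in controls (0.36, edgeR adjusted p = 0.394), and for α-catenin 367 ± 20.9 CPM in overexpression and 416 ± 29.5 CPM in controls (−0.18, edgeR adjusted p = 0.547). Plakoglobin averaged 534 ± 59.0 CPM in overexpression and 643 ± 276 CPM in controls (−0.27, edgeR adjusted p = 0.570), and vinculin 209.9 ± 73.0 CPM in overexpression and 210.0 ± 25.4 CPM in controls (−0.00, edgeR adjusted p = 0.999). Over all genes, 1.13% passed in this comparison. Of the 79 related genes tested in this line, DSG3, a desmosomal cadherin, was the only call of the main fit. Its edgeR adjusted p was 0.0293, and up to 0.141 without 1 library. DSG3 had 14, 27 and 21 counts in overexpression libraries, against 1, 0 and 0 in controls, and passed the low-count filter only through the overexpression libraries.

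Between the control groups, afadin and FAT4 told the lines apart. MKN45 controls were set against MKN28 controls with 8 of the 10 genes tested: 1 was higher, 1 lower and 6 did not pass, where 41.8% of 16088 genes passed in either direction, 21.4% higher and 20.4% lower. The groups did not overlap for these 2 genes, as for 52.3% of all genes. AFDN averaged 38.3 ± 23.2 CPM in MKN45 and 157 ± 65.8 CPM in MKN28 (log2 fold change −2.04, SE 0.48, edgeR adjusted p = 0.0049). FAT4 was higher in MKN45, with 142 counts over its 3 control libraries and 2 over those of MKN28. The ratio was 77.8 per total count (95% exact interval 21.1 to 649, counting error only). FAT4 passed the low-count filter only through the MKN45 libraries, which limits what its edgeR test adds (adjusted p = 0.00014). CDH3 averaged 127 ± 26.6 CPM in MKN45 and 228 ± 85.2 CPM in MKN28 (−0.84, edgeR adjusted p = 0.0721). In a fit that blocks on the replicate number, which pairs these libraries, it passed (−0.79, SE 0.19, adjusted p = 0.0076), as it did without MKN28 control 3 (−1.11, adjusted p = 0.0279). CDH1 averaged 346 ± 61.0 CPM in MKN45 and 384 ± 67.3 CPM in MKN28 (−0.15, SE 0.30, edgeR adjusted p = 0.719).

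Levels per kilobase put plakoglobin at the top and α-catenin next in all 4 groups, neither range overlapping the next gene below. In the knockdown, however, the range of α-catenin (52.9 to 83.9 CPM per kilobase) overlapped that of CTNNB1, which ranked 4 and reached 60.5. JUP averaged 329.7 CPM per kilobase in the knockdown and 188 in MKN28 controls, and 153 in overexpression and 184 in MKN45 controls. E-cadherin ranked 3 in overexpression libraries (73.4), above FAT1 with no overlap, and 3 in MKN28 controls (61.4), where its range overlapped that of CTNND1 below it. In MKN45 controls it ranked 4 (70.3), its range overlapping that of CTNND1 above it. In the knockdown it ranked 5, at 14.8 CPM per kilobase, behind CDH3 (42.4) and CTNNB1 (22.6, split between libraries). FAT4 was last in every group.

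Whether the response to ZNF165 differed between the lines was tested on all 12 libraries, as the effect of overexpression over control in MKN45 minus that of control over knockdown in MKN28. A negative value means that higher ZNF165 went with less of a rise, or more of a fall, in MKN45 than in MKN28. Of 8 genes tested, CDH1 (−1.96, SE 0.47, edgeR adjusted p = 0.0152) and VCL (−2.29, SE 0.52, edgeR adjusted p = 0.0122) passed, where 9.38% of 17266 genes were lower and 8.09% higher (46.3% of the calls were higher, and 19.7% with library totals alone). After correction for length and GC VCL was at −0.89 (adjusted p = 0.104), and when knockdown replicate 1 stood alone, at −1.77 (adjusted p = 0.0579). AFDN, at −2.39 (SE 0.79, edgeR adjusted p = 0.0505), did not pass here but did with DESeq2 (0.0161) and without knockdown replicate 1 (−3.30, adjusted p = 0.0015). The lines differ in more than the direction of ZNF165, and line and treatment cannot be told apart in this contrast.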

How the data were processed

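RNA-seq was run on 12 libraries, 3 in each of 4 groups. The authors deposited a table of whole-number counts by Ensembl gene and library, per the file headers. HISAT2 and StringTie were used, per the submitters' processing notes; the sources used here give neither their versions nor the build, annotation or strand setting. Symbols were matched for 49659 of 50868 identifiers, and 20369 identifiers had no count. One list of related genes is not reported here. The adherens junction genes and all lists were chosen with earlier results of these data known. Each comparison was fitted with edgeR 4.0.16 (R 4.3.3): TMM scaling, the low-count filter of filterByExpr (minimum count 10, total 15), quasi-likelihood test and Benjamini-Hochberg adjustment over all genes, threshold 0.05. Named genes were ZNF165, all members, and from each related list reported up to 2 highest and 2 lowest called fold changes whose groups did not overlap and which averaged at least 1 CPM in one group. Alternatives were DESeq2 1.42.0 and its size factors, upper-quartile factors, library totals alone, no filter, all 12 libraries in one fit, a replicate block, a length and GC trend fitted with mgcv 1.9.3, and fits without each library; knockdown replicates 2 and 3 were also left out together. Same-numbered libraries deviated together between the control groups (correlations across genes 0.264, 0.507 and 0.281), and the numbers come from the titles. MKN45 control 1 was slightly closer to MKN28 control 3 (0.275) than to its own number. The scripts were tested on simulated data.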

Additional observations from a re-analysis of the deposited data

Results flagged for a closer look

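The effect of ZNF165 on CDH1 differed between the lines by −1.96 on the log2 scale (edgeR adjusted p = 0.0152), and that on VCL by −2.29 (edgeR adjusted p = 0.0122); both fell in the knockdown in MKN28 and did not pass the test with overexpression in MKN45. With the length and GC trend removed, VCL passed neither for the difference (−0.89, adjusted p = 0.104) nor in the knockdown (−0.28, adjusted p = 0.378). For CTNND1 the same difference was −3.72, a description that was not tested, because CTNND1 was chosen for its low counts in the knockdown. For CTNND1, every knockdown library was below every MKN28 control and every overexpression library below every MKN45 control. The first of these is part of what CTNND1 was chosen on. Of all genes, 30.3% were lower without overlap in the knockdown and 18.7% in overexpression.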

How the results depend on the processing

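Over all fits without 1 library, the genes past the threshold numbered 2642 to 10378 in the knockdown, 1 to 1338 in overexpression and 1163 to 8210 for the difference between the lines, and the members past it 3 to 5, 0 to 2 and 2 to 4. Knockdown replicate 1 decided the upper ends for the knockdown and the difference (10378 and 8210 without it), MKN28 control 1 the lowest knockdown count, and either overexpression replicate 1 or 2 the lowest in MKN45. With knockdown replicates 2 and 3 both left out, 3352 genes passed in the knockdown and 1217 (1 member) for the difference. In overexpression DESeq2 called 1834 genes (2 members), no filter 722, the length and GC trend removed 1259, all 12 libraries in one fit 3 (0 members), the replicate block 8 (0 members), and library totals alone 0 members. For the difference DESeq2 called 4730 genes and the trend removed 1 member.

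Signs turned for these members. In the knockdown, CDH3 was −0.62 and JUP −0.10 with library totals alone; CTNNB1 was 0.59 and CTNNA1 0.40 with the trend removed; CDH3 was −0.31 and CTNNB1 0.98 without knockdown replicates 2 and 3; without 1 library CDH3 ran from −0.033 to 0.57 and CTNNB1 from −2.98 to 0.047. In overexpression, VCL was 0.093 with library totals alone, CDH1 −0.076 and CTNNB1 −0.030 with the trend removed, and without 1 library CDH1 ran from −0.0445 to 0.20, JUP from −0.48 to 0.13 and VCL from −0.17 to 0.25. Between controls, CTNNA1 was 0.014 with DESeq2 or its size factors and 0.13 with upper-quartile factors, FAT1 was −0.13 with the replicate block, and without 1 library CDH1 ran from −0.27 to 0.0615, CTNNA1 from −0.048 to 0.074 and FAT1 from −0.58 to 0.48. For the difference between the lines, CDH3 was 0.12 with DESeq2 or its size factors and 0.21 with the trend removed, CTNNB1 0.55 and CTNNA1 0.17 with the trend removed, FAT4 0.30 with DESeq2, JUP −0.24 with library totals alone, and without knockdown replicates 2 and 3 CTNNB1 was 1.31 and JUP −0.29; without 1 library CDH3 ran from −0.39 to 0.26 and CTNNB1 from −2.68 to 0.41. None of those with a test passed it in the main fit (FAT1 between controls had none), and the causes were not tested.

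With the replicate block, CTNND1 in overexpression had an adjusted p of 0.101 and CTNNB1 in the knockdown was −1.81 (adjusted p = 0.0138); for the difference between the lines AFDN passed (−2.41, adjusted p = 0.0308), and between the controls CDH3 did (−0.79, adjusted p = 0.0076). The block changed no other call on a member. In neither line do the labels pair the numbers (same-number correlations 0.291, 0.431 and −0.357 in MKN28; −0.055, −0.055 and 0.087 in MKN45), and not every library was closest to its own number. Library totals alone gave CTNND1 in overexpression an adjusted p of 0.0571 and the fit of all 12 libraries 0.348.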
